A study of Mus musculus with 6 samples.

Results

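Provisionally named zinc finger genes of the KRAB type were far less abundant in mouse extraembryonic endoderm (XEN) cells than in mouse embryonic stem (ES) cells. The 98 genes described here held 0.0582% ± 0.000248 of all expected counts in XEN libraries and 0.4% ± 0.00342 in ES libraries (SD, n = 3 each). They were chosen from 17710 genes as the rows whose orthology annotation holds K09228, the KEGG term for KRAB domain-containing zinc finger proteins, and whose name is still provisional. Of the 543 rows with that term, 48 had a symbol of the Gm or Rik type (32 Gm and 16 Rik) and 50 were gene models that the authors added and left without a symbol. The other 445 rows with the term were the family members used for comparison.

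KRAB zinc finger proteins bind DNA through a row of zinc fingers and carry a KRAB box that recruits the corepressor TRIM28, which brings in the histone methyltransferase SETDB1 and other silencing factors. In ES cells this system is known for repressing transposable elements and for keeping the methylation of imprinted regions. The family has grown in rodents by local duplication, so many mouse copies sit in clusters, resemble each other closely and have never received a functional name.

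The XEN cells, an established stem cell type derived from the primitive endoderm, were of the ICR strain and grown in RPMI1640 with 15% FBS, glutamine and BME as the labels abbreviate them (3 libraries, A, B and C). The ES cells, the pluripotent counterpart of the early epiblast, were of the 129/Ola strain and grown on gelatin in N2B27-2iLIF (3 libraries, A, B and C). Both were kept free of feeder cells, and both were sequenced as total RNA. Cell type, strain and medium differed together, so their parts in any difference cannot be told apart. The labels do not say whether replicate libraries stem from separate cultures, and p-values therefore reflect the library-to-library spread alone, which may be technical.

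The libraries held between 20675311 and 22375875 expected counts. All 8 XEN marker genes were higher in XEN libraries (5960 to 6651 CPM summed, against 5.14 to 5.61 CPM in ES libraries) and all 8 ES marker genes were lower (161 to 181 CPM summed, against 5646 to 5797 CPM). Of 8 fibroblast markers, 2 were higher in XEN libraries and 1 was lower. The list summed to 27.0 to 38.3 CPM in XEN libraries, nearly all of it Acta2 and Pdgfrb. In ES libraries it summed to 6.45 to 6.69 CPM, nearly all of it Pdgfrb (mean 3.42 CPM) and Thy1 (mean 2.85 CPM). The collagen genes Col1a1, Col1a2 and Col3a1 were at or near 0 in both groups. Of 8 trophoblast markers, 2 were higher and 3 lower, the list summing to 10.4 to 12.8 CPM in XEN libraries against 82.7 to 86.2 CPM in ES libraries, mostly Tfap2c and Eomes, with Elf5 and Gcm1 at or near 0. The 8 markers of a state like that of 2-cell embryos summed to 0.199 to 0.312 CPM in XEN and 0.184 to 0.391 CPM in ES libraries. The part of such cells in the results below was not tested.

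The transcripts of most named members held a repeated zinc finger unit joined by a conserved linker. A KRAB box was not searched for, so membership in the KRAB family rests on the orthology term. The linker, known as the H/C link, was searched as a 16-base pattern (its matches are the capitals below) in the longest GENCODE transcript, which was found for 40 of the 48 named members. Of these, 34 held at least 1 linker and 29 held at least 5, which is 72.5% of them. Of 58797 mouse coding transcripts, of which 1 gene can have several, 0.765% held at least 5. The members were chosen by a zinc finger term, so these shares do not test their place in the family. Other rows with K09228 were not searched. Over the 40 members the median was 9 linkers and the highest count was 22, in Gm14295. In these transcripts 253 of 304 successive linkers lay exactly 84 bases apart, the length of 1 finger with its linker. As examples, 1 finger unit of 100 bases is given for each of 4 members that the results turn on, with the linkers that open and close it in capitals. These 4 lie on chromosomes 13 and 2 and do not show how alike the other members are.
Gm10324: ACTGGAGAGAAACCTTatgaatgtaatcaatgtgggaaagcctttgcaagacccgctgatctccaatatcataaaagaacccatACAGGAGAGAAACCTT
2410141K09Rik: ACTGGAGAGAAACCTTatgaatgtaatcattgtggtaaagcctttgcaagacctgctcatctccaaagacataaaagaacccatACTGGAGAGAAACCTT
Gm14308: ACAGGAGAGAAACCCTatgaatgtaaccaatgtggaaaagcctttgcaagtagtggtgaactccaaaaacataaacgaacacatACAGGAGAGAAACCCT
Gm14326: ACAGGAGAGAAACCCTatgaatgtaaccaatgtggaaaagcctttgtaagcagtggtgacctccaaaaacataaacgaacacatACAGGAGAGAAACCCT

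Gm10324 and 2410141K09Rik, from chromosome 13, differed at 8 of these 100 bases, and Gm14308 and Gm14326, from chromosome 2, at 3. The stretch of Gm4724 had 0 differences from that of Gm14308, and the stretch of Gm14305 had 1. Each stretch begins and ends on a match to the linker pattern, so most bases at its ends are alike by construction. Each is also the first in its transcript with linkers 84 bases apart, so the fingers compared need not correspond between genes. No linker was found in 6 of the 40, namely A830018L16Rik, 9030624G23Rik, Gm10037, E330034G19Rik, 3300002I08Rik and 0610010B08Rik. The label is least secure for 3 of these: the best protein match of A830018L16Rik is an uncharacterized protein that is not named as a zinc finger protein, and the tables put a different orthology term first for E330034G19Rik and 9030624G23Rik. For 3300002I08Rik the transcript searched had 650 bases against a listed length of 7949, and for 0610010B08Rik 1621 against 4539. A linker outside the searched transcript would be missed. Over all 98 members, 61 had a best protein match described as a zinc finger protein, and their listed lengths ran from 230 to 10385 bases, with a median of 3328.

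The regions upstream of many named members shared a short sequence. A promoter window, from 250 bases before to 50 bases after the start, was available from RefSeq (GRCm38.p6) for 40 named members, in 44 windows. The letters CCAATCA, on either strand, were found in 36 of the 44 windows (81.8%). They were found in 92 of 460 windows of other rows with K09228 (20%) and in 7.82% of 32851 windows of all genes. All 36 held them on the strand of the gene, at a median of 66.5 bases before the start, and 32 of them within the last 100 bases. The motif was chosen after the sequences had been read, and copies of one gene count more than once, since 16 of the 36 windows lie on chromosome 2. The windows below belong to a member of the large chromosome 2 run, to a pair on chromosome 13 that was nearly silent in XEN cells, and to the named member with the largest rise; CCAATCA is in capitals and coordinates are GRCm38.p6.
Gm14308 promoter, chr2:176636270-176636569, minus strand: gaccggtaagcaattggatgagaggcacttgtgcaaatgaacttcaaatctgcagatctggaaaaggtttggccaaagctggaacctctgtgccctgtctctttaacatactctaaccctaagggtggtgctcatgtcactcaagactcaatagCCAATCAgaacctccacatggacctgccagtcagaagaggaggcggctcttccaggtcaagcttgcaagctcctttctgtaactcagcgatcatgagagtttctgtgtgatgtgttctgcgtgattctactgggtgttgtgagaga
Gm10324 promoter, chr13:66113203-66113502, plus strand: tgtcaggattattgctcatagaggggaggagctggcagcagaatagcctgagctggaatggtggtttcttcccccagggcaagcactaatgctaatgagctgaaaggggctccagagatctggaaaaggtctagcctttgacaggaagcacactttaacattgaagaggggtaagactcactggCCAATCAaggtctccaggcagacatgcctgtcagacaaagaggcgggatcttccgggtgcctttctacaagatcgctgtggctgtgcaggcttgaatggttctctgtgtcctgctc
2410141K09Rik promoter, chr13:66441069-66441368, minus strand: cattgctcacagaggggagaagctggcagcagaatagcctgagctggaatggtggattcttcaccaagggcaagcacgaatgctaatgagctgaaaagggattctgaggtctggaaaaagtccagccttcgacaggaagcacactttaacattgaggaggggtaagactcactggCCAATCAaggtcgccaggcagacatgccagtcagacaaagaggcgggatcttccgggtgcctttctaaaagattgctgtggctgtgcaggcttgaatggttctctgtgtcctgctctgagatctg
2610008E11Rik promoter, chr10:79097551-79097850, minus strand: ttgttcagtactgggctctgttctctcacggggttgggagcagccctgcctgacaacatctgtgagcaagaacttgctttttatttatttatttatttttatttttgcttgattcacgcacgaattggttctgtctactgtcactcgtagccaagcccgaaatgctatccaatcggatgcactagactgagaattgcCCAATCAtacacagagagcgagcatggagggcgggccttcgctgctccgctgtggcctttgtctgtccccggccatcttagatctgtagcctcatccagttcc

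The window of Gm14308 is identical over all 300 bases to those of Gm4724, Gm14434 and 0610010B08Rik. CCAATCA was present in 3 of 4 windows of members higher in XEN cells and in 26 of 30 windows of members lower in XEN cells. Of the other motifs searched, all on either strand, the shorter CCAAT was found in 90.9% of member windows. It was found in 47.0% of windows of other rows with K09228 and in 37.4% of all. GGCGGG was found in 36.4% of member windows against 35.3% of all, and CCATNTT in 18.2% against 16.1%. TATAAA was found in 4.55% against 13.6%, and CACGTG in 4.55% against 7.15%. A match to these letters is a description of the window and not a binding site.

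Most members that could be tested were lower in XEN cells. Counts were tested gene by gene with the quasi-likelihood test of edgeR over 13581 genes, and a gene was called at a Benjamini-Hochberg adjusted p under 0.05. The test could be run on 90 of the 98 members, of which 76 were lower in XEN cells (background 46.7% of all tested genes), 9 were higher (background 42.0%) and 5 did not pass. The XEN libraries lay below every ES library for 76 tested members (background 47.0%) and above every ES library for 9 (background 42.4%). The lower calls and this separation disagreed for Gm14288, which was called with overlap, and for Gm4724, which was separated without being called. Against a change of 2-fold, tested with glmTreat, 63 members were lower (background 23.4%) and 4 higher (background 19.3%). The fitted fold was at least 4-fold lower for 53 members (background 17.6%).

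These counts depend partly on which members could enter the test, since a member detected in ES libraries alone can only be lower. Of all 13581 tested genes, 1898 reached the filter level in ES libraries alone and 776 in XEN libraries alone. For the 415 other rows with K09228 these counts were 50 and 10. Of the 90 members, 33 reached it in ES libraries alone and 0 in XEN libraries alone. Among the 57 that reached it in both groups, 45 were lower (78.9%), 9 were higher and 35 were lower by more than 2-fold (61.4%), against 63.9% lower and 24.5% lower by more than 2-fold among 355 other rows with K09228 that reached it in both. Among all 10907 genes that did so, 41.1% were lower and 12.9% were lower by more than 2-fold. This restriction takes out the deepest falls, and no test was run of the shares, since the genes of a family are not independent.

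**Figure D1:**
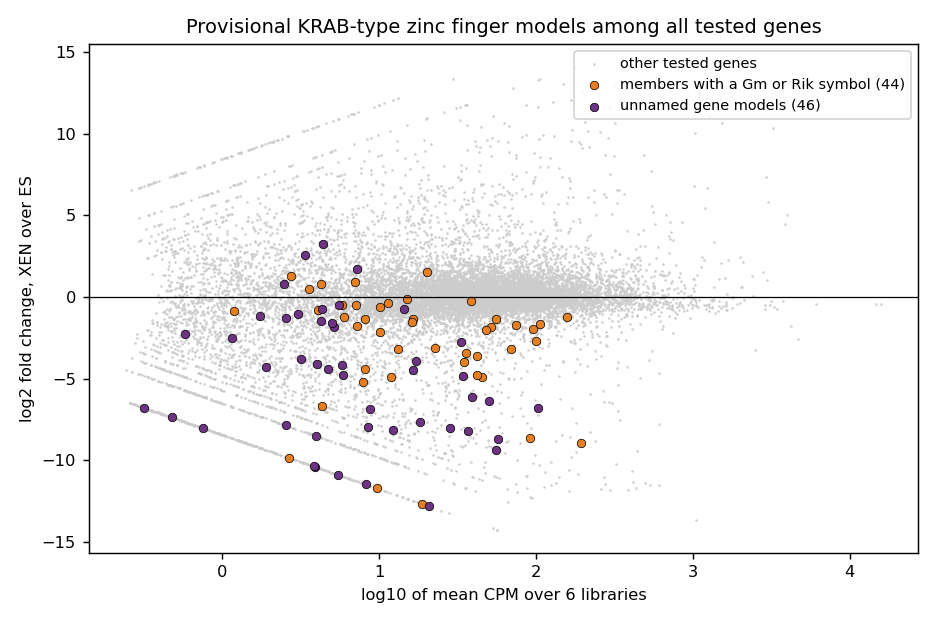
Log2 fold change of XEN over ES (y axis) against the log10 of the mean CPM over 6 libraries (x axis) for every tested gene, with 44 tested members with symbols in orange and 46 tested unnamed models in purple. Most members lie below 0; points on the lowest slanting line have 0 counts in all XEN libraries, and their fitted fold depends on the prior count.

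As a summed share of counts, the members were further below their ES level in XEN cells than the rest of their family. In the XEN libraries A, B and C they held 0.0584%, 0.0583% and 0.0579% of the expected counts, and in the ES libraries A, B and C 0.403%, 0.396% and 0.399%. The groups did not overlap, and the ES share was 6.87 times the XEN share. In bulk RNA, fewer cells with a transcript and less of it per cell cannot be told apart. Named members held 0.0504% ± 0.000154 in XEN and 0.270% ± 0.00176 in ES libraries, a ratio of ES to XEN of 5.35. Unnamed models held 0.00776% ± 9.79e-05 in XEN and 0.130% ± 0.00171 in ES libraries, a ratio of 16.7. The other rows with K09228 held 0.780% ± 0.0165 in XEN and 1.83% ± 0.0143 in ES libraries, a ratio of 2.35 (SD, n = 3 each). The members made up 6.82%, 7.08% and 6.94% of all K09228 counts in the XEN libraries A, B and C, and 17.9% in each ES library. No p is given for these sums, because the members were chosen with results of these data known.

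**Figure D2:**
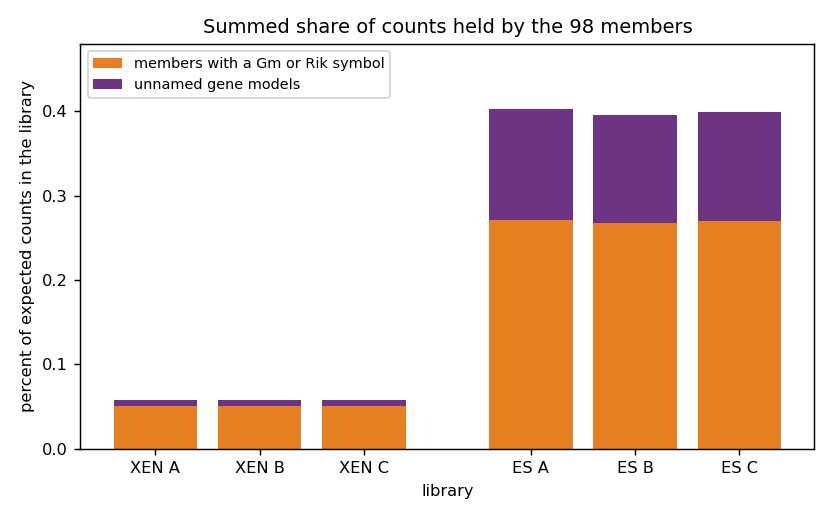
Percent of a library's expected counts (y axis) held by the 98 members in each XEN and ES library (x axis), stacked as members with symbols (orange) and unnamed models (purple). The 3 XEN libraries sit at 0.0579% to 0.0584% and the 3 ES libraries at 0.396% to 0.403%.

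On the length-corrected FPKM scale the members were mostly faint in XEN cells. Their median level was 0.6 FPKM in XEN and 4.38 FPKM in ES libraries, while the median of the other rows with K09228 was 2.71 FPKM in XEN and 4.67 FPKM in ES libraries. At least 1 FPKM was reached by 37 members in XEN and 84 members in ES libraries, taking group means. The highest level was 39.5 FPKM in XEN cells, for 9030624G23Rik, and 139 FPKM in ES cells, for Gm10324. The 12 members with the most counts held 47.7% of the members' counts in XEN and 53.0% in ES libraries.

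Gm10324 was the most abundant member in ES cells and nearly silent in XEN cells, where 9030624G23Rik was the most abundant. It had 0.878, 0.791 and 0.668 CPM in the XEN libraries A, B and C, against 395, 381 and 382 CPM in the ES libraries. CPM here are scaled to the TMM-adjusted library size. The groups lay far apart, with a log2 fold change of -8.94 ± 0.12 (SE; edgeR adjusted p = 4.35e-27). Its close relative on the same chromosome, 2410141K09Rik, had 0.602, 0.373 and 0.345 CPM in XEN and 181, 188 and 177 CPM in ES libraries. Its log2 fold change was -8.66 ± 0.22 (edgeR adjusted p = 1.75e-25), and on the length-corrected scale both genes stood at 139 and 138 FPKM in ES cells, against 0.313 and 0.303 FPKM in XEN cells.

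Other abundant named members were lower by a smaller factor and stayed well expressed in XEN cells. 9030624G23Rik, whose transcript holds no finger linker, had 96.4, 92.8 and 89.3 CPM in XEN libraries, against 224, 222 and 218 CPM in ES libraries (log2 fold change -1.25 ± 0.03, edgeR adjusted p = 2.23e-17). Gm14325 had 50.3, 51.4 and 50.1 CPM in XEN and 162, 157 and 162 CPM in ES libraries (-1.66 ± 0.02). Gm6710 had 43.2, 31.2 and 41.3 CPM in XEN and 156, 154 and 151 CPM in ES libraries (-1.99 ± 0.15). In all 3 the XEN libraries lay below every ES library. Gm14322 (33.4, 34.0 and 36.0 CPM in XEN, against 115, 111 and 118 CPM in ES) and 5730507C01Rik (29.6, 33.4 and 30.3 CPM in XEN, against 80.3, 79.1 and 78.7 CPM in ES) followed with log2 fold changes of -1.73 ± 0.04 and -1.35 ± 0.05. The fall was deeper for Gm14326, with 27.7, 27.1 and 23.1 CPM in XEN and 175, 169 and 174 CPM in ES libraries (-2.73 ± 0.08). Gm38396, on chromosome 17, had 14.7, 13.8 and 12.5 CPM in XEN and 124, 121 and 129 CPM in ES libraries (-3.19 ± 0.07). The adjusted p of these 7 genes ran from 5.95e-22 to 7.86e-06, the highest being that of Gm6710.

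**Figure D3:**
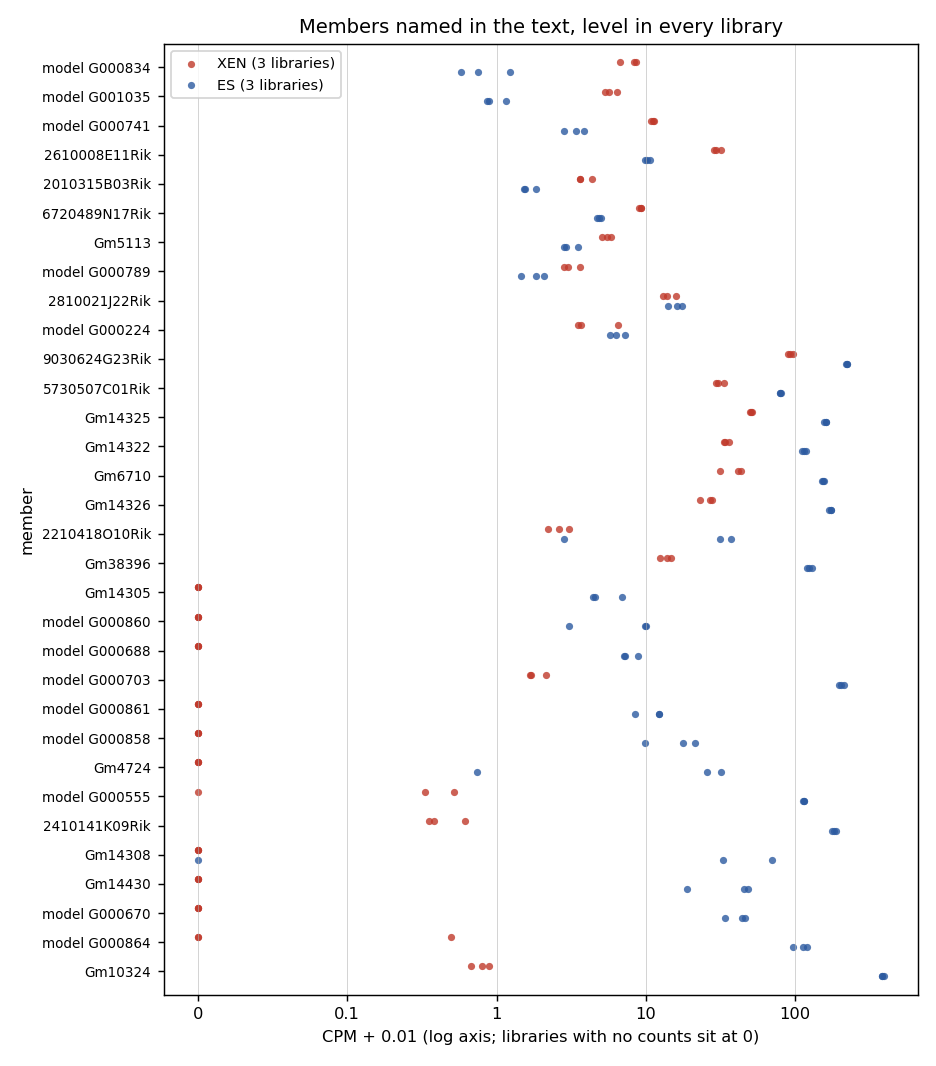
CPM of each library (x axis, log scale with 0.01 added) for the members chosen by rule (y axis, sorted by the difference between groups), XEN libraries in red above ES libraries in blue. Gm10324 lies under 1 CPM in XEN and at 381 to 395 CPM in ES libraries, while the uppermost rows, led by model G000834, lie higher in XEN libraries.

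The unnamed models reached the deepest falls. Of 46 tested, 40 were lower in XEN cells (background 46.7% of all tested genes), 4 were higher (background 42.0%) and 2 did not pass, and the median log2 fold change was -4.63, or -4.37 when models with 0 counts in XEN are held at their bound, beside -0.07 for all genes. For the 44 tested named members 36 were lower, 5 higher and 3 did not pass, with a median of -1.81, and for the 415 tested other rows with K09228 276 were lower, 92 higher and 47 did not pass, with a median of -0.62. These values include rows that reached the filter level in ES libraries alone and could only be lower. Among those that reached it in both groups, the median was -1.55 for the 57 members, -0.49 for other rows with K09228 and 0.04 for all genes. It was not taken for the unnamed models alone. Model G000703, whose best match is zinc finger protein 600, had 2.14, 1.67 and 1.69 CPM in XEN, against 212, 197 and 202 CPM in ES libraries (-6.78 ± 0.12, edgeR adjusted p = 2.86e-25). Model G000555 had 0, 0.321 and 0.510 CPM in XEN, against 115, 114 and 113 CPM in ES libraries (-8.69 ± 0.82, adjusted p = 2.04e-11). Both lay far below every ES library in all XEN libraries, and the fold of G000555 moved to -8.10 without XEN library A and to -9.39 without XEN library C. Zfp600, the named gene that the first of them matches, fell itself, with 0.374 ± 0.0835 CPM in XEN and 335 ± 8.37 CPM in ES libraries (-9.82, edgeR adjusted p = 4.79e-27).

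Several unnamed models share a best protein match, and 4 sets of such models with sums lower in XEN cells are given first. The 8 models that match a zinc finger protein-like entry (G000858 to G000865) summed to 0.785, 0.3 and 0.624 CPM in the XEN libraries, against 201, 191 and 183 CPM in the ES libraries, which is 337-fold lower in XEN. Within this set, G000864 had 0.485, 0 and 0 CPM in XEN and 121, 96.4 and 113 CPM in ES libraries (-9.39 ± 0.88, edgeR adjusted p = 1.17e-05), and G000858 had 0 counts in every XEN library and 9.93, 21.5 and 17.7 CPM in ES libraries. G000864 had XEN counts in library A alone, and its fitted fold was -8.80 without XEN library B and -14.23 without XEN library A, where no XEN count is left and the value depends on the prior count. The single models varied by 10% to 161% (coefficient of variation) over ES libraries and their sum by 4.62%. In the 3 sets that follow, the sum varied more than the steadiest single model and less than the most variable one. The 5 models that match a gastrula zinc finger protein XlCGF26.1-like entry summed to 4.51, 3.85 and 3.29 CPM in XEN and 193, 193 and 199.8 CPM in ES libraries, 50.3-fold lower in XEN. The 4 models that match LOC433804 summed to 3.95 ± 0.264 CPM in XEN and 158 ± 2.12 CPM in ES libraries (39.9-fold lower in XEN), and the 8 that match LOC666532 to 7.61 ± 0.582 CPM in XEN and 123 ± 3.83 CPM in ES libraries (16.1-fold lower in XEN; SD, n = 3 each). In none of these 4 sets did a XEN library reach an ES library. Other sets with a shared match did not all fall. G000741 and G000742 summed higher in XEN cells, to 13.1 ± 0.363 CPM against 7.43 ± 0.43 CPM in ES libraries. The sum of G000223 and G000224 was 1.58-fold lower in XEN, that of G000854 to G000856 7.06-fold, and that of G000554 and G000555 48.4-fold. The sources used here give no sequence or position for the unnamed models, so whether they are copies of one another was not tested.

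No counts at all were recorded in XEN libraries for 17 of the 98 members, 7 of them named, and for 14 of the 445 other rows with K09228. Among tested genes, this held for 12.2% of members, 1.69% of other rows with K09228 and 3.11% of all genes. No counts in any ES library were recorded for 0 members and 5 other rows. A row is listed only if it has counts in some library, and the 11 of these 17 members that were tested entered the test through ES libraries alone, so they could only be lower. Against a floor of 3 counts over the 3 XEN libraries together, model G000670 (43.9, 46.4 and 34.0 CPM in ES) was at least 867-fold lower in XEN cells, Gm14430 (48.1, 18.8 and 45.7 CPM in ES) at least 783-fold and G000858 at least 346-fold. G000861 (8.4, 12.2 and 12.2 CPM in ES) was at least 229.8-fold lower, G000688 (7.22, 7.17 and 8.80 CPM in ES) at least 162-fold, G000860 (9.87, 10 and 3.06 CPM in ES) at least 159-fold and Gm14305 (4.45, 6.89 and 4.56 CPM in ES) at least 111-fold. These 7 passed the edgeR test, at adjusted p between 2.64e-14 for G000688 and 0.0451 for G000860. Leaving out 1 library ended 3 of these calls: Gm14430 without ES library A or C (adjusted p = 0.113 each), G000858 without ES library C (0.072), and G000860 without any 1 of the XEN libraries or without ES library A or B (0.0628 to 0.157). The floor covers counting error only and not the division of counts between copies.

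That division differed between libraries for the named copies on chromosome 2. The transcripts of 2210418O10Rik and Gm14296 are identical over 3823 aligned bases. In ES libraries 2210418O10Rik had 37.4, 2.80 and 31.3 CPM and Gm14296 had 67.9, 99.6 and 74.2 CPM, so that the library with the least of one had the most of the other. Their sum was 6.14, 5.12 and 5.21 CPM in XEN and 105, 102 and 105 CPM in ES libraries, 19-fold lower in XEN, and varied by 1.63% over ES libraries against 77.5% and 20.8% for the single genes. On its own, 2210418O10Rik, with 3.07, 2.20 and 2.61 CPM in XEN libraries, did not pass the edgeR test (log2 fold change -3.18 ± 1.2, adjusted p = 0.0564), since ES library B lay within the XEN range, and it passed without that library (adjusted p = 1.14e-13).

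Counts also shifted between Gm14308, Gm4724, Gm14434 and Gm14305, which are at least 99% identical over at least 90% of their length. All 4 had 0 counts in every XEN library. In the ES libraries A, B and C, Gm14308 had 0, 69.5 and 32.9 CPM, and Gm4724 had 31.9, 0.726 and 25.6 CPM. Gm4724 did not pass the test in spite of groups that did not overlap (edgeR adjusted p = 0.145, and 3.05e-11 without ES library B), and Gm14308 could not be tested because ES library A had none. The sum of these 4 was 41.8, 78.0 and 63.2 CPM in ES libraries and was not steady, varying by 29.8% against 26% for the steadiest single copy. Adding Gm14430, which has the listed length of Gm14308, and 0610010B08Rik, which shares its promoter window, gave 4.06, 4.33 and 5.77 CPM in XEN and 132, 141 and 145 CPM in ES libraries, which is 29.6-fold lower in XEN, with a variation of 4.53% over ES libraries. This wider sum was put together after the values were seen, and the transcripts of its 2 added genes were not shown to be near-identical to the others. In XEN libraries all of it was assigned to 0610010B08Rik. Of the other 2 pairs of copies, Gm14391 and Gm6710 summed to 61.2 ± 4.27 CPM in XEN and 234 ± 3.09 CPM in ES libraries (3.83-fold lower in XEN), and Gm14288 and Gm14440 to 6.72 ± 0.112 CPM in XEN and 9.83 ± 0.324 CPM in ES libraries (1.46-fold lower in XEN; SD, n = 3 each).

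**Figure D4:**
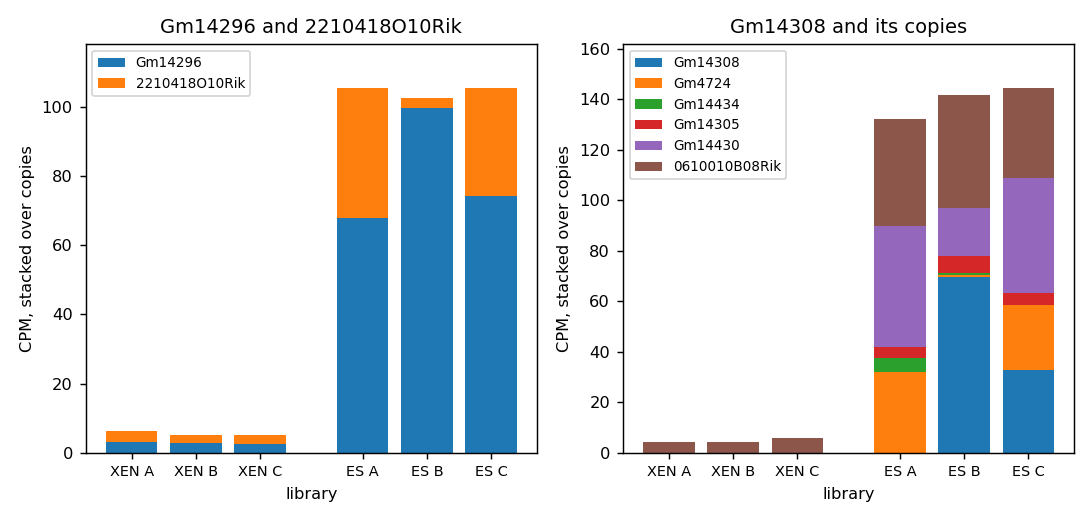
CPM per library (y axis) for XEN and ES libraries (x axis), stacked over 2 identical copies (left) and over 4 near-identical copies with Gm14430 and 0610010B08Rik, added after the values were seen (right). The shares of the single genes change between ES libraries while the stacks keep to 102 to 105 CPM on the left and 132 to 145 CPM on the right.

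Uneven single values were more frequent among members than among all tested genes. The other rows with K09228 were not looked at separately. Of the 72 tested members that averaged 5 CPM or more in ES libraries, 8 varied by more than 25% over those libraries (11.1%), against 0.431% of 10201 tested genes at that level, and the median variation was 5.76% for members and 3.62% for all genes. Besides Gm4724, 2210418O10Rik, Gm14430 and Gm14305, they were the unnamed models G000865, G000860, G000858 and G000668.

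The 9 members that were higher in XEN cells were mostly faint in both groups. G000834 led them, with 6.70, 8.62 and 8.29 CPM in XEN, against 0.738, 0.567 and 1.22 CPM in ES libraries (log2 fold change 3.22 ± 0.31, edgeR adjusted p = 5.77e-12). G001035, which matches the X-linked zinc finger protein ZXDB, had 6.39, 5.63 and 5.32 CPM in XEN, against 0.878, 1.15 and 0.857 CPM in ES libraries (2.58 ± 0.14). G000741 had 11.3, 11.1 and 10.9 CPM in XEN, against 2.82, 3.85 and 3.41 CPM in ES libraries (1.73 ± 0.13). The groups were apart in each of these models, and all 3 passed the test against 2-fold. G000742, which shares the best match of G000741, was lower in XEN cells (-1.02 ± 0.2, edgeR adjusted p = 2.93e-05). Summed, G000741 and G000742 had 13.1 ± 0.363 CPM in XEN and 7.43 ± 0.43 CPM in ES libraries, a smaller rise than that of G000741.

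Among named members, 2610008E11Rik on chromosome 10 rose most, with 28.8, 29.6 and 31.8 CPM in XEN, against 9.82, 10.2 and 10.7 CPM in ES libraries (1.55 ± 0.06, edgeR adjusted p = 1.55e-14). Of the named members, it alone was higher in the test against 2-fold. Smaller rises were found for 4 more members by the rule. 2010315B03Rik had 4.32, 3.64 and 3.62 CPM in XEN and 1.51, 1.53 and 1.83 CPM in ES libraries (1.25 ± 0.12), and 6720489N17Rik had 9.31, 9.32 and 8.97 CPM in XEN and 4.73, 4.99 and 4.87 CPM in ES libraries (0.92 ± 0.03). Gm5113 had 5.08, 5.45 and 5.81 CPM in XEN and 2.89, 3.53 and 2.83 CPM in ES libraries (0.82 ± 0.11), and the unnamed G000789 had 3.01, 2.8 and 3.62 CPM in XEN and 2.07, 1.44 and 1.83 CPM in ES libraries (0.82 ± 0.18). In all 4 every XEN library lay above every ES library. The ninth, E430018J23Rik, lies outside the naming rule and had 4.14 ± 0.152 CPM in XEN and 3.0 ± 0.234 CPM in ES libraries (0.46 ± 0.07). All adjusted p were at most 0.00578 in the edgeR test. Gm5113 is annotated as a non-coding RNA in the RefSeq table, so its place in the family is doubtful.

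The members that did not pass, beside Gm4724 and 2210418O10Rik, were 1 named gene and 2 unnamed models. 2810021J22Rik had 13.8, 13.1 and 15.9 CPM in XEN, against 14.0, 16.1 and 17.6 CPM in ES libraries, and the groups overlapped (log2 fold change -0.15 ± 0.13, edgeR adjusted p = 0.126). G000224 had 3.68, 6.52 and 3.48 CPM in XEN, against 6.33, 5.75 and 7.21 CPM in ES libraries, again with overlap (-0.49 ± 0.30, adjusted p = 0.0674). G000856, the fifth member that did not pass, had 0, 0 and 3.27 CPM in XEN, against 1.93, 2.71 and 2.53 CPM in ES libraries, so that a single XEN library set its mean. The 8 members that could not be tested were Gm14308, Gm14434, Gm10037, E330034G19Rik, G000863, G000862, G000686 and G000230, and apart from Gm14308 none averaged more than 2.18 CPM in either group.

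By position, the 5 named members higher in XEN cells lay on chromosomes 7, 9, 10 and 13. Every other chromosome with tested members had none, including those with a single member. The RefSeq table (GRCm38.p6) placed 46 of the 48, of which 19 lie on chromosome 2. A run of 27 successive coding genes there holds 16 members and 6 other rows with K09228. Of these 16 members, 14 were tested, 12 were lower (background 46.7%), 0 were higher (background 42.0%) and 2 did not pass (2210418O10Rik and Gm4724), and the run summed to 194 ± 4.35 CPM in XEN and 978 ± 13.1 CPM in ES libraries. A second group of 3 on that chromosome, Gm14139, Gm14124 and 3300002I08Rik, was lower throughout. All 5 members on chromosome 17 were lower, with log2 fold changes from -3.41 for Gm20939 to -0.27 for Gm7072. On chromosome 13, 4 of 5 tested members were lower and 6720489N17Rik was higher, and the sum of 6 was 24.3 ± 0.537 CPM in XEN and 608 ± 7.64 CPM in ES libraries, most of it Gm10324 and 2410141K09Rik. On chromosome 7, 2 of 3 were higher (Gm5113 and E430018J23Rik) and 9130023H24Rik was lower. Neighbouring members are related in sequence and are not independent observations.

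**Figure D5:**
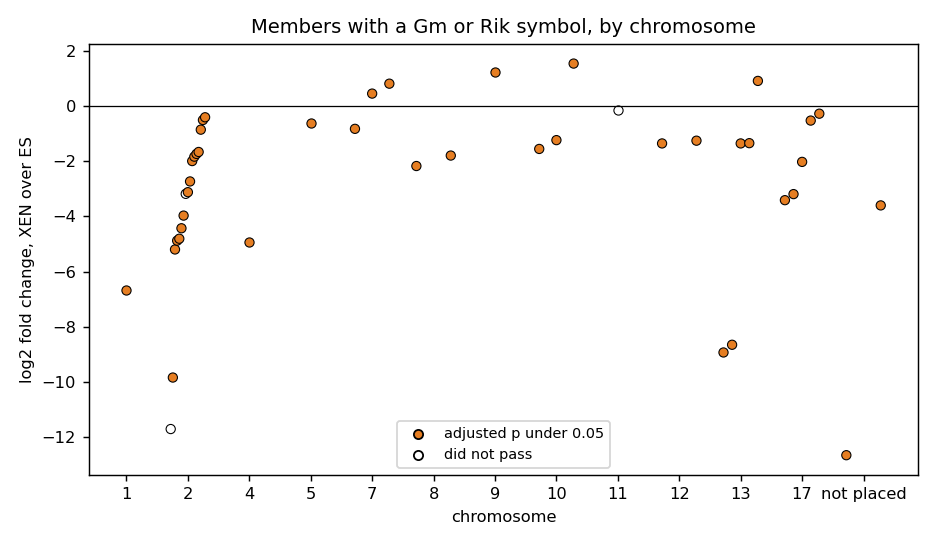
Log2 fold change of XEN over ES (y axis) for the 44 tested members with symbols, by chromosome (x axis), with filled points for adjusted p under 0.05 and open points for members that did not pass. The 5 points above 0 are on chromosomes 7, 9, 10 and 13, and all points of the other chromosomes lie below 0.

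The partners of KRAB zinc finger proteins were divided between both directions. Of 42 genes of the repression machinery, 14 were higher in XEN cells (background 42.0%), 23 were lower (background 46.7%) and 5 did not pass, with a median log2 fold change of -0.22. The corepressor Trim28 had 561 ± 9.27 CPM in XEN and 1358 ± 32.5 CPM in ES libraries (-1.27, edgeR adjusted p = 5.89e-18), and the histone methyltransferase Setdb1 had 94.7 ± 1.81 CPM in XEN and 173 ± 8.21 CPM in ES libraries (-0.87, adjusted p = 3.67e-14). Lower too were Atf7ip2, a relative of the SETDB1 cofactor (3.44 ± 0.254 CPM in XEN, 19.8 ± 1.01 CPM in ES), and Dnmt3l, a cofactor of the de novo DNA methyltransferases (0.525 ± 0.0182 CPM in XEN, 5.26 ± 0.946 CPM in ES). Higher were the DNA methyltransferase Dnmt3b (219 ± 4.13 CPM in XEN, 50.2 ± 0.547 CPM in ES; 2.13) and the remodeller Chd3 (29.5 ± 1.93 CPM in XEN, 4.51 ± 0.176 CPM in ES; 2.71). Trim33 and Cbx3, with adjusted p of 0.864 and 0.917, did not pass.

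Functionally studied KRAB zinc finger genes, taken as a list of 27, gave 20 lower (background 46.7%), 3 higher (background 42.0%) and 4 that did not pass, with a median log2 fold change of -1.03. The imprint regulator Zfp57 had 43.5 ± 0.552 CPM in XEN and 431 ± 20.3 CPM in ES libraries (-3.31, edgeR adjusted p = 9.4e-24). Rex2 had 1.05 ± 0.157 CPM in XEN and 476 ± 15.8 CPM in ES libraries (-8.84). Zfp429 was higher in XEN cells (6.12 ± 0.308 CPM, against 0.133 ± 0.0186 CPM in ES; 5.46), while Zfp809, a repressor of retroviral elements, did not pass (adjusted p = 0.586; 76.2 ± 4.78 CPM in XEN and 77.8 ± 3.98 CPM in ES).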

How the data were processed

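Total RNA of 3 XEN and 3 ES libraries was sequenced on the BGISEQ-500 platform, per the labels. The submitters' processing notes name mm9, Bowtie2, RSEM and DESeq2, without versions or roles. The deposited tables give expected counts per gene, in which reads that match several copies are shared out among them, and FPKM values made by the authors. Genes missing from a table were set to 0 counts in that library. Counts were rounded, filtered with filterByExpr, scaled by TMM and fitted with edgeR 4.0.16 (R 4.3.3) by robust quasi-likelihood, with group as the only term. Errors of fold changes come from the spread of log2 CPM with a prior count of 2. The fit was tested on simulated data.

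The members and gene lists were chosen with earlier results of these data known. Members given with the value of every library were the 12 with the highest mean count, the 8 with the largest called change in each direction at a mean of at least 1 CPM, up to 6 with 0 counts in XEN libraries, and the 4 with the highest adjusted p at a mean of at least 5 CPM; others named were chosen after their values were seen. Copies were compared with BLAST+ 2.17.0 on GENCODE M21 transcripts. Chromosomes and promoters came from RefSeq tables of GRCm38.p6, matched by gene ID, so no coordinate is of mm9. A planned count of fingers in proteins was replaced by the linker search. Alternatives were other composition factors (RLE, upper-quartile, none) and filters, a replicate block, each library left out, DESeq2 1.42.0, limma 3.58.1 (voom, and trend on log2 of FPKM + 1 and FPKM + 0.1) and sums of copies.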

Additional observations from a re-analysis of the deposited data

How the results depend on the processing

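The count of members called lower in XEN cells ran from 72 to 81, against 76, and of those called higher from 8 to 10, against 9, over all scalings, filters, tools and left-out libraries. The number tested changed too, from 90 to 88 at a mean of at least 1 CPM (72 lower) and 98 without a filter (77 lower). It was 93 without XEN library A and 94 without XEN library B. The share of all genes called under each setting is not given here, so these counts have no background. With copies summed (chosen after seeing the data), 74 of 86 rows were lower when near-identical named copies were joined, and 55 of 67 when unnamed models with the same match were joined. Leaving out 1 library kept the lower calls at 72 to 77. With the replicate block the counts stayed at 76 lower and 9 higher, and 275 lower and 90 higher among other rows with K09228, though letters do not pair libraries (correlations of 0.0327, 0.00761 and 0.0199). Without a composition factor the median of all genes shifted by -0.133, and by -0.147 with upper-quartile factors, on the log2 scale.

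The share difference of -0.341 percentage points became -0.301 without Gm10324, -0.219 without the unnamed models, -0.122 for the unnamed models alone, -0.322 without the named members that lack a linker (chosen after seeing the data), -0.321 over the TMM-scaled library size and -0.218 as a share of summed FPKM; without 1 library it ran from -0.343 to -0.340. No result reversed. Of 496 values of 31 named members under alternatives, 467 kept their direction and side of the threshold, 8 lost the call and 21 gained it. The gains were of members that had not passed: 2810021J22Rik and G000224 passed under several settings, among them upper-quartile factors (adjusted p = 0.00524 and 0.0268), and Gm4724 and 2210418O10Rik under DESeq2 (2.08e-06 and 0.00105). The cause was not tested. Depth limits members under the floor of 3 counts, which is 0.134 to 0.145 CPM per library before scaling.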
